A study of Mus musculus with 12 samples.

Results

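The baseline transcriptome of the control heart was described in 3 of the 12 RNA sequencing libraries of the series, those made from mouse hearts at embryonic day 9.5 with the genotype NkxCre.Asb2fl/+. These hearts carried a Cre recombinase driver, written NkxCre in the labels, and 1 floxed allele of Asb2, which encodes the substrate-binding subunit of a cullin-5 ubiquitin ligase. They are therefore heterozygous controls and not wild type, and no library without Cre is among those used here. The labels give the strain as C57/BL 6 and the tissue as heart, but neither the promoter behind the Cre driver, nor the sex of the embryos, nor whether 1 heart or several went into a library. The other 9 libraries, from mutant genotypes, entered none of the values below. The deposited tables held 15663 genes, and 13858 of them reached a mean of 1 CPM (reads scaled to library size, as the authors did it) over the 3 libraries. In this text 3 values in a row are those of control libraries 1, 2 and 3, in that order, and an error after ± is the SD over these 3 libraries (n = 3). With a single group nothing was tested between conditions, so no p-value is given. Whether the 3 came from separate litters is not stated, so the spread between them may be in part technical.

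At this stage the mouse heart is a looped, beating tube in which the chambers have begun to balloon out. Its wall has an outer layer of muscle and an inner endocardium, with a gelatinous matrix, the cardiac jelly, between them. Ridges of muscle called trabeculae grow inward under signals from the endocardium, cells are still added from the second heart field at both ends, and an outer cover, the epicardium, spreads from the proepicardium near the liver. The lumen is filled with primitive red cells made in the yolk sac. A dissected heart can also bring along neighbouring tissue, such as pharyngeal arch, foregut endoderm or septum transversum.

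The 4 genes used to check the label as heart were high in each library. Myh6, the alpha cardiac myosin heavy chain, stood at 5247, 2996 and 3935 CPM. Myh7, the beta chain, stood at 5973, 4078 and 4606 CPM. Nppa, the atrial natriuretic peptide precursor made by embryonic chamber muscle, stood at 1014, 1083 and 926 CPM. Nkx2-5, the homeobox factor of early heart muscle, stood at 199, 135 and 143 CPM. All 3 libraries thus held heart muscle RNA in quantity.

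The 3 libraries were deep and alike for most genes, but each stood apart from the other two in some tissue or sex marker. They held 31778370, 36094168 and 29798424 reads in listed genes. The SD of log2(CPM + 0.5) over the libraries, the measure of spread used throughout, had a median of 0.19 and exceeded 0.5 in 1193 of 13858 genes (8.61%). Library 1 was at least 2-fold below library 2 in 516 genes (3.72%) and below library 3 in 505 (3.64%), and at least 2-fold above them in 209 (1.51%) and 151 (1.09%). Libraries 2 and 3 were closer: library 2 was at least 2-fold above library 3 in 112 genes (0.808%) and at least 2-fold below it in 152 (1.1%). Xist, the RNA that coats the inactive X chromosome of female cells, stood at 0.823, 302 and 106 CPM. Ddx3y, a helicase gene of the Y chromosome, stood at 58.6, 0 and 51.4 CPM. Library 1 thus held Y-linked RNA and almost no Xist, library 2 held Xist and no read of any of 4 Y-linked genes, and library 3 held both. Whether library 3 was made from embryos of both sexes was not tested. Counts that rest on 1 library are therefore given with and without it. Of the same 13858 genes, 769, 1357 and 1400 exceeded an SD of 0.5 without library 1, 2 and 3 in turn. Each such SD rests on 2 values instead of 3, so list counts without a library are to be read beside these.

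The most abundant named transcripts per length of gene were those of the contractile apparatus and of embryonic hemoglobin. Levels of different genes were compared as CPM per kilobase of the deposited gene length, over which the 13858 genes had a median of 7.65. Actc1, the cardiac alpha-actin of the thin filament, led the named genes with 7913, 5063 and 5778 CPM per kilobase. Hbb-y, the embryonic epsilon-type beta-globin, followed with 5575, 6259.5 and 6826 CPM per kilobase. These ranges overlapped, so the order of Actc1 and Hbb-y differed between libraries. Myl7, the atrial regulatory myosin light chain, reached 4641 ± 1521 CPM per kilobase. Tnnt2, which anchors the troponin complex to tropomyosin, Hbb-bh1, another embryonic beta-globin, and H19, a long noncoding RNA of an imprinted locus, came next and differed from each other by less than their spread, at 2525 ± 516, 2477 ± 383 and 2349 ± 177 CPM per kilobase. The place of Tnnt2 depends on the length used, as its deposited length is 1208 bases and its summed exon length in GENCODE M21 is 7752. Nppa ranked 22 among all genes by CPM per kilobase of deposited length, Myh6 56, Myh7 60 and Nkx2-5 620.

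**Figure D1:**
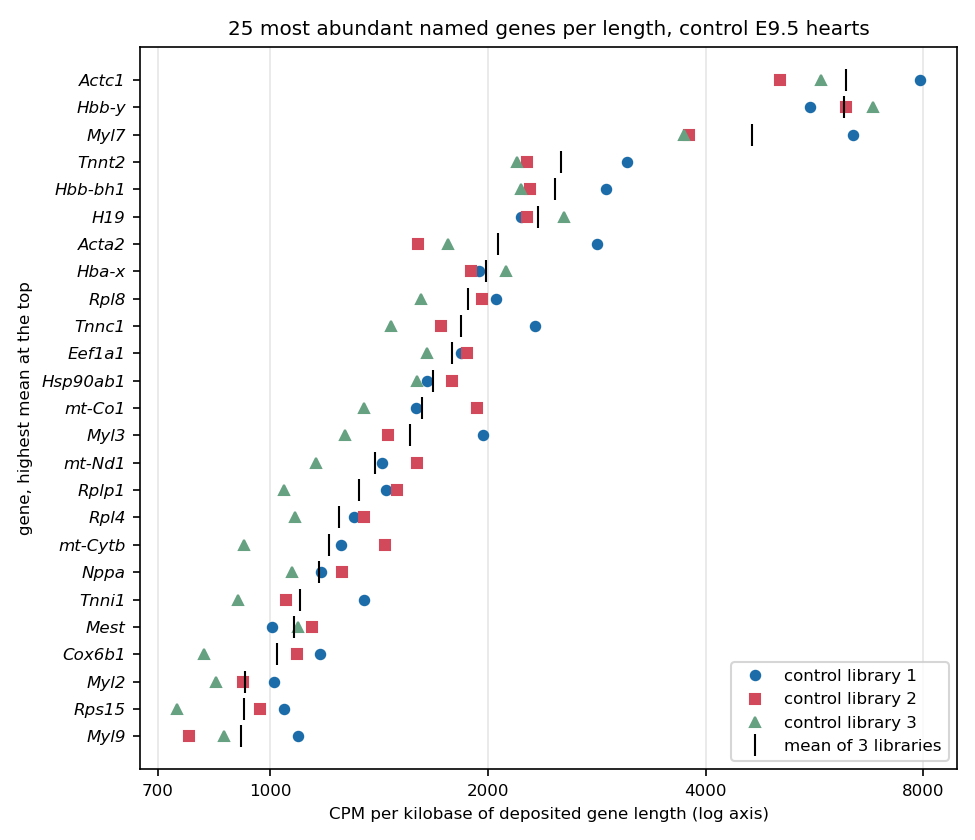
The 25 named genes with the highest mean level per length in the control hearts, on a log axis of CPM per kilobase, with 1 symbol per library and a vertical bar for the mean of the 3 libraries. Actc1 and Hbb-y lead at 6252 and 6220.1 CPM per kilobase, and library 1 is the rightmost symbol for the sarcomere genes shown.

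By CPM without regard to length, 10 genes took 7.46, 5.53 and 8.66% of the signal, 100 genes 21.5, 18.7 and 21.3% and 1000 genes 51.1, 48.8 and 49.7%. The first place belonged to Gm26924, a model gene singled out after its values were seen, with 25729.6, 12022 and 41870.1 CPM. It is annotated as a lincRNA at chr17:39846958-39848788 (GRCm38), where RefSeq names an 18S ribosomal RNA-related sequence, Rn18s-rs5. Its level in library 3 was over 3 times that in library 2. The same order, lowest in library 2 and highest in library 3, was seen in Lars2, the mitochondrial leucyl-tRNA synthetase gene, at 2458, 1322 and 3593 CPM, and in 2 short genes annotated as microRNAs, Gm23935 at 325, 171 and 460.2 CPM and Gm24187 at 88.9, 60.1 and 128 CPM. The annotated sequences of these 2 genes, shown because reads of one can hardly be told from reads of the other, are 57 bases long and differ by 1 substitution, G11A from Gm23935 to Gm24187, counted from 1 at the 5′ end and marked by the capital:
Gm23935: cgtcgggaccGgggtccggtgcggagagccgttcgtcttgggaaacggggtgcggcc
Gm24187: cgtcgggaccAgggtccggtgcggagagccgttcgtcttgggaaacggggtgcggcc
Together with Gm26917 and mmu-mir-6236, which had the same order, these genes took 2.75, 1.38 and 4.53% of the signal. How much ribosomal RNA each library held was not measured in any other way, and its part in the spread of other genes was not tested.

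Genes of the sarcomere, the repeating unit of striated muscle, made up 6.93, 4.86 and 4.97% of all signal (mean 5.59% ± 1.16 percentage points SD). All 40 genes of this list were listed, 36 of 40 were at or above the median of all genes per length, and the median member stood at 218 CPM per kilobase. Library 1 was the highest of the 3 in 36 of 40 members, against 4744 of 13858 genes overall. In this bulk RNA, more muscle cells and more sarcomere RNA per cell cannot be told apart. In the thin filament, Actc1 exceeded Acta1, the skeletal alpha-actin, 12.3-fold per length, and Acta2, the smooth muscle actin that early heart muscle also makes, stood at 2065 ± 668 CPM per kilobase. Among troponins, Tnnc1, the calcium-binding subunit, stood at 1838 ± 439 CPM per kilobase, and the slow skeletal inhibitory subunit Tnni1 exceeded the cardiac Tnni3 by 1.54 ± 0.056 on the log2 scale per length, and by 0.83 with GENCODE exon lengths. Tpm1, a tropomyosin gene, lay 16.6-fold above Tpm2 per length, and other tropomyosin genes were not compared. Ttn, the giant spring protein of the sarcomere, stood at 1741, 706 and 1160.0 CPM, highest in library 1 and lowest in library 2. Acta1 was among the 4 members with an SD above 0.5, with 1163, 537 and 575 CPM, and library 1 alone was high. The 4 members are 10% of the list, against 8.61% of all genes. The share above that SD was 0.7% among all genes of 100 to 1000 CPM and 4% among those of 1000 CPM or more. Without library 3, 10 of 40 members exceeded that limit, against 1400 of 13858 genes.

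The thick filament carried both cardiac myosins in near equal amount. The log2 ratio of Myh6 over Myh7 per length was 0.16, -0.094 and 0.12, so the order of the isoforms changed between libraries and the mean ratio, 0.065 ± 0.14, was smaller than its SD. Both genes share sequence with other genes. Of the 50-base windows of their annotated transcripts, 20.2% of those of Myh6 and 20% of those of Myh7 also occur in another annotated gene. Which gene that is was not recorded. The levels of Myh6 and Myh7, and so their ratio, are less certain than the level of Actc1, which shared none. The light chains did differ. Myl7 exceeded the ventricular regulatory chain Myl2 by 2.66, 2.04 and 2.15 on the log2 scale per length, and the atrial essential chain Myl4 lay below the ventricular Myl3, at -0.80, -0.88 and -0.91. Both orders held in every library, but the gap between Myl4 and Myl3 depends on length. Their deposited lengths are 4314 and 1298 bases, and the mean log2 ratio was -0.31 with GENCODE exon lengths. In CPM without regard to length Myl4 was the higher, at 4874, 3408 and 2904 against 2553, 1888 and 1647. Mybpc3, the cardiac myosin-binding protein C, stood at 2425, 1547 and 1796 CPM. Myom2, an M-band protein of mature muscle, was the lowest of the list with 1.35, 0.686 and 1.95 CPM.

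The bases upstream of the transcription start were examined for leading muscle genes, Nppa, the globin genes Hbb-y and Hba-x, the epicardial gene Upk3b, and Afp. Afp is a yolk sac and liver gene that was among the most variable between libraries. Only those of Actc1, Myl7, Nppa and Afp are shown. The stretches are the 250 bases before the RefSeq start, on the gene's own strand (RefSeq, GRCm38.p6). They lie at chr2:114052876-114053125 (minus strand) for Actc1, chr11:5898783-5899032 (minus strand) for Myl7, chr4:148000472-148000721 (plus strand) for Nppa and chr5:90490464-90490713 (plus strand) for Afp. Capitals mark matches, on either strand, to any of the following motifs. Those spelled out are the promoter box TATAAA, the motif of GATA factors written AGATAA, that of T-box factors written GGTGTGA, and that of TEAD factors written CATTCC. Also searched were the CArG box, which SRF binds, and the MEF2 site. A TATAAA match can overlap a CArG or MEF2 match.
Actc1: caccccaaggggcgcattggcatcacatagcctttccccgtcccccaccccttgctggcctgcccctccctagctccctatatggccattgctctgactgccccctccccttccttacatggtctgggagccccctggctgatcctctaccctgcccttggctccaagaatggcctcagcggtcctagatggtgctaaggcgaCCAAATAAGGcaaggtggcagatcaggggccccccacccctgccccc
Myl7: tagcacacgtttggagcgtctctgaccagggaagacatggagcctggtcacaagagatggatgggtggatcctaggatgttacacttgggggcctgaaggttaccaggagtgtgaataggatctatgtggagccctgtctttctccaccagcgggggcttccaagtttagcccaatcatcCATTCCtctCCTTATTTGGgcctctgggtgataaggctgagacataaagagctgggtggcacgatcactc
Nppa: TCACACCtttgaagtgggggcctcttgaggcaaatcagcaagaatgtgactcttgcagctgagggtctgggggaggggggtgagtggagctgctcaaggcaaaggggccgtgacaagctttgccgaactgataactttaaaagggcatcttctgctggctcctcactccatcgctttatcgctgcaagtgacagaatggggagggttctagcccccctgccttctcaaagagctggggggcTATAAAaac
Afp: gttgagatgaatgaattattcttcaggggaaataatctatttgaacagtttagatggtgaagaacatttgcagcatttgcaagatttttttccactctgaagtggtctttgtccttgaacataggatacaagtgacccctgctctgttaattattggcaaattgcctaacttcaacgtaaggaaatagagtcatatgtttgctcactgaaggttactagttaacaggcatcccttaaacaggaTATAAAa
Actc1 and Myl7 each held a CArG box, which began 47 and 61 bases before the start, and Myl7 held CATTCC just upstream of it. Nppa held TATAAA close to the start and the T-box motif on the reverse strand at the far end of the window, and Afp held TATAAA alone. Among the stretches not shown, those of the muscle genes Tnnt2 and Myh6 held no CArG box. Tnnt2 held AGATAA and CATTCC, and Myh6 and Upk3b held CATTCC alone. Hba-x held TATAAA alone, and Hbb-y held none of the motifs. Of 29 sarcomere genes with a matched promoter, 6 (20.7%) held a CArG box, 9 (31%) CATTCC, 5 (17.2%) AGATAA and 3 (10.3%) a MEF2 site. Over all 10172 genes with a matched promoter the shares were 1.1%, 10.5%, 5.7% and 0.5%. TATAAA was found in 5 of 17 promoters of the red blood cell list (29.4%) and 7 of 25 of the liver bud and yolk sac endoderm list (28%), against 6.2% of all. These matches are descriptions of short windows and were not tested.

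Genes of both chamber lists were present, but bulk RNA does not show in which part of the heart each was made. Of the atrial and inflow list, 17 of 22 members were at or above the all-gene median per length, and of the ventricular list 22 of 26. Natriuretic peptide RNA was mostly Nppa, which exceeded Nppb, the B-type precursor, by 2.55, 3.59 and 3.59 on the log2 scale per length. Nppb itself stood at 157, 81.4 and 69.2 CPM and library 1 alone was high, whereas Nppa varied by an SD of only 0.11. Bmp10, a ligand of trabecular muscle, stood at 43.3, 22.2 and 40 CPM and Hcn4, the pacemaker channel of the inflow tract, at 57.3, 35.3 and 74.8 CPM, both lowest in library 2. Over the atrial and inflow list, library 2 was the lowest in 10 of 21 members, library 1 in 6 and library 3 in 5. Among all 13858 genes these counts were 4500, 4775 and 4583. The SD exceeded 0.5 in 6 of the 21 (28.6%, against 8.61% of all genes). Without library 1, 2 and 3 in turn it did so in 2, 7 and 7, against 769, 1357 and 1400 of 13858 genes. Shox2, a factor of the sinus venosus, stood at 10.7, 32.8 and 37.2 CPM, Nr2f2, a nuclear receptor of atrial muscle, at 51.9, 84.8 and 88 CPM, and Tbx18 at 14.1, 69.3 and 86.7 CPM, all lowest in library 1. Sln, the small pump regulator of later atrial muscle, was low, at 0, 0.659 and 0.89 CPM. On the ventricular side, Irx4, a homeobox factor of ventricular muscle, stood at 101, 60.7 and 62.9 CPM, Hand1, a factor of the left ventricle, at 76.2, 66.5 and 83.2 CPM, and Pln, the inhibitor of the calcium pump, at 102, 143 and 181 CPM. The log2 ratio of Hand1 over its right ventricular relative Hand2 was -1.17, -1.40 and -1.18 per length, so Hand2 was higher in every library.

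**Figure D2:**
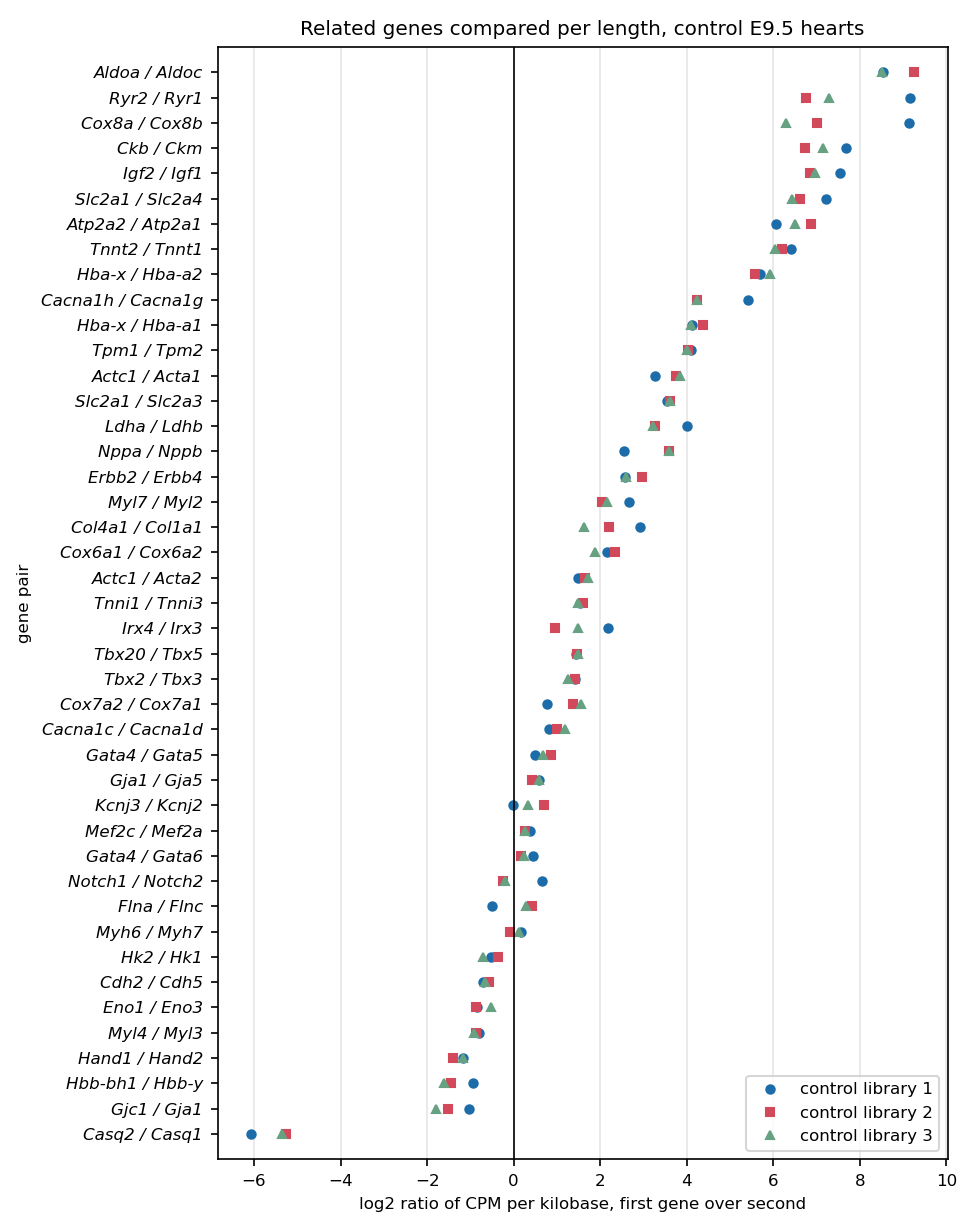
Log2 ratio of CPM per kilobase for 43 pairs of related genes, the first named gene over the second, with 1 symbol per library and a line at 0, where both are equal. The first gene was higher in all 3 libraries in 31 pairs and lower in 8, and 4 pairs (Myh6 / Myh7, Flna / Flnc, Notch1 / Notch2 and Kcnj3 / Kcnj2) straddle the line.

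Over 43 pairs of related genes, the first gene was above the second per length in every library in 31 pairs, below in 8, and in 4 the order differed between libraries. The ratio exceeded 8-fold in 17 pairs. With the summed exon length of GENCODE M21 in place of the deposited length, 4 pairs no longer kept their order. The gap junction genes show why length matters here: Gja1 (connexin 43) lay above Gja5 (connexin 40) by 0.53 ± 0.092 on the log2 scale with the deposited lengths, 3103 and 3163 bases, and the mean log2 ratio was -0.33 with exon lengths of 10257 and 5746 bases. The other 3 were Gjc1 against Gja1, Mef2c against Mef2a and Cacna1c against Cacna1d, whose order then differed between libraries.

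Of 40 transcription factors of the cardiac program, 39 were listed, each above 1 CPM. Per length, Nkx2-5 led with 104 ± 23 CPM per kilobase. Smyd1, a muscle methyltransferase, Hand2 and Tbx20, a T-box factor of chamber muscle, followed with 75.3 ± 12.8, 63.7 ± 2.95 and 61.6 ± 9.14 CPM per kilobase. Gata4, which works with Nkx2-5 and Tbx5, stood at 284, 219.6 and 294 CPM and exceeded Gata6 by 0.45, 0.17 and 0.23 on the log2 scale per length, and by 1.81 on average with GENCODE exon lengths. Tbx20 exceeded Tbx5, a factor of the atria and left ventricle, by 1.45, 1.48 and 1.49. Hey2, a Notch target of the compact ventricular wall, varied least of the list, at 60.9, 62.5 and 59.4 CPM. Srf, the factor that binds the CArG box, stood at 290.3, 177 and 209.8 CPM, highest in library 1. Of 39 members, 5 had an SD above 0.5 (12.8%, against 8.61% of all genes). That share was 3.8% among all genes of 10 to 50 CPM and 0.7% among those of 100 to 1000 CPM. Without library 1 the count was 2, against 769 of 13858 genes, and without library 3 it was 8, against 1400.

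Calcium handling was led by Atp2a2, the pump that refills the sarcoplasmic reticulum, at 3138, 2181 and 2868 CPM. The sodium-calcium exchanger Slc8a1 stood at 588, 332 and 550.3 CPM and the release channel Ryr2 at 386, 228 and 366 CPM, both lowest in library 2. The skeletal pump Atp2a1 lay 89.2-fold below Atp2a2 per length. The log2 ratio of Ryr2 over the skeletal release channel Ryr1 was 9.16, 6.76 and 7.29, highest in library 1, with a mean of 7.74 and of 7.03 without that library. Calsequestrin went the other way. Casq1, known as the skeletal form of this calcium-storing protein, stood at 527, 312 and 360.2 CPM, and Casq2, the cardiac form, at 9.35, 9.74 and 10.5 CPM, a 47.4-fold difference per length that held in every library. Of the 2 T-type calcium channel genes compared, Cacna1h lay 24.6-fold above Cacna1g per length. Kcnd2 and Kcnd3, channels of the adult transient outward current, stood at 0.559, 1.84 and 2.16 CPM and 0.79, 1.04 and 1.88 CPM, and Hcn2 did not reach 1 CPM.

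Endocardial genes were at a moderate level, with a median of 9.12 CPM per kilobase. All 38 were listed, 21 of 38 reached the all-gene median per length, and together they made up 0.24, 0.215 and 0.249% of the signal. Cdh5, the endothelial cadherin, stood at 143, 118 and 155 CPM, and Tek, the angiopoietin receptor, at 133, 119.6 and 153 CPM. Npr3, which clears natriuretic peptides and marks the endocardium, stood at 134, 138 and 157 CPM. The median SD of the list was 0.25, against 0.19 over all genes, and library 2 was the lowest in 22 of 38 members, against 4500 of 13858 genes. Without library 1 and without library 3, 1 and 5 members had an SD above 0.5, against 769 and 1400 of 13858 genes. Over all 3 libraries, 2 of 38 members did (5.3%, against 8.61% of all genes). These were Apln, the apelin ligand of sprouting vessels, at 0.79, 3.92 and 5.3 CPM, and its receptor Aplnr, at 5.56, 20.2 and 18.9 CPM, both low in library 1. Plvap, a protein of endothelial pores, led the endothelial genes apart from Hapln1, at 65.9 ± 10.1 CPM per kilobase.

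Genes of the atrioventricular canal and cushions, where valves form, included Hapln1, a hyaluronan-binding link protein, at 407, 362 and 419.9 CPM, and Vcan, the proteoglycan versican of the cardiac jelly, at 886, 572 and 773 CPM. Has2, which makes the hyaluronan, stood at 94.4, 72.6 and 71.7 CPM. Bmp2, the canal muscle ligand that starts cushion formation, stood at 51.9, 36.1 and 41.8 CPM, and Tbx2, the repressor that keeps canal muscle from chamber fate, at 57.3, 45.6 and 39.5 CPM, 2.57-fold above Tbx3 per length. Mesenchymal members were less even. Pdgfra, a receptor of mesenchyme, stood at 51.7, 90 and 112 CPM and Cxcl12, a chemokine, at 41, 100.3 and 88.8 CPM, both lowest in library 1. Of 25 members of this list, 7 had an SD above 0.5 (28%, against 8.61% of all genes), and all 7 were low in library 1. None of the list exceeded it over libraries 2 and 3 alone, against 769 of 13858 genes.

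Signals exchanged between muscle and endocardium were led by Igf2, a growth factor of an imprinted locus, at 3800.5, 3574 and 4903 CPM, with its clearance receptor Igf2r at 2105, 1626 and 2392 CPM. Igf1 lay 139-fold below Igf2 per length. Nrg1, the endocardial neuregulin that drives trabeculation, stood at 6.06, 3.02 and 4.65 CPM. Of the Erbb receptor genes compared, Erbb2 stood at 175, 137 and 185 CPM and exceeded Erbb4 6.56-fold per length. Among Notch genes, the log2 ratio of Notch1 over Notch2 was 0.66, -0.24 and -0.20, an order that library 1 alone turned. Of matrix genes, Sparc, a collagen-binding protein, led with 222 ± 29.3 CPM per kilobase, and Fn1, fibronectin, stood at 1141, 968 and 1408 CPM. The basement membrane collagen Col4a1 exceeded the fibrillar Col1a1 4.75-fold per length. Col3a1, a fibrillar collagen of mesenchyme, stood at 229, 388 and 560.4 CPM, lowest in library 1 and highest in library 3, and Col2a1, known from cartilage and also made in cushions, stood at 731, 353 and 509 CPM, highest in library 1.

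Blood contributed a near constant share. The 7 hemoglobin genes took 0.708, 0.747 and 0.782% of the signal (mean 0.746% ± 0.037 percentage points SD). Hba-x, the embryonic zeta-type alpha-globin, stood at 1819, 1769 and 1979 CPM. The log2 ratio of Hbb-bh1 over Hbb-y was -0.93, -1.45 and -1.62 per length, lower in every library. Hba-x exceeded the adult-type Hba-a1 18.5-fold and Hba-a2 53.1-fold per length, but 72.3% and 89.3% of the 50-base windows of Hba-a1 and Hba-a2 occur in another annotated gene, so reads of these copies may not all have been counted. Gata1, the erythroid master factor, stood at 7.17, 7.16 and 9.04 CPM, Klf1, an activator of globin genes, at 14.1, 11.7 and 15.5 CPM, and Alas2, which starts heme synthesis in red cells, at 59.5, 46.4 and 63.9 CPM. Library 2 was the lowest of the 3 in 21 of 28 red cell genes and library 3 the highest in 21, against 4500 and 4974 of 13858 genes, with a median deviation from the gene's mean of 0.035, -0.21 and 0.19 on the log2 scale. White blood cell and platelet markers were scarce. Of 28 genes, 18 were listed, 1 reached the all-gene median per length, and their sum was 56.8, 71 and 75.4 CPM. Pf4, a platelet chemokine also made by macrophages, led the list per length and stood at 4.48, 9.88 and 7.12 CPM, and Csf1r, the macrophage growth factor receptor, stood at 0.79, 1.45 and 2.4 CPM.

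Of the glycolysis and glucose uptake list, 23 of 31 members were at or above the all-gene median per length. Pkm, pyruvate kinase, stood at 2248, 1958 and 1878 CPM, and Ldha, the lactate dehydrogenase subunit favoured when oxygen is low, at 2931, 2113 and 1926 CPM. Ldha exceeded Ldhb 11.3-fold per length. Glucose uptake was led by Slc2a1, the transporter GLUT1, at 1541, 1012 and 1050.2 CPM, 108-fold above the insulin-dependent Slc2a4. The muscle enolase Eno3 lay above Eno1 per length in every library, with a log2 ratio of Eno1 over Eno3 of -0.84, -0.86 and -0.51. This order rests on unlike deposited lengths, 4523 bases for Eno1 and 1779 for Eno3. The mean ratio was -1.02 with GENCODE exon lengths. Of the 50-base windows of Eno1, 26% occur in another annotated gene, and none of those of Eno3, so the level of Eno1 is less certain. Hk1 lay above Hk2, at -0.51, -0.37 and -0.72 for Hk2 over Hk1. Library 1 was the highest of the 3 in 24 of 31 glycolysis genes, against 4744 of 13858 genes. Gapdh, a glycolytic dehydrogenase, was among the 8 members below the all-gene median, and stood at 13.7, 9.41 and 10.5 CPM, and 25.1% of its 50-base windows occur in another annotated gene. Whether the shared sequence lowered that count was not tested. Gapdh is named here after its value was seen.

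The nuclear genes of the respiratory chain had a median of 159 CPM per kilobase, with 49 of 51 at or above the all-gene median. Atp5b, the catalytic subunit of ATP synthase, stood at 3479, 3019 and 3175 CPM, and Cox6b1, a subunit of cytochrome oxidase, led per length at 1023 ± 189 CPM per kilobase. The liver-type subunit Cox6a1 exceeded the heart-type Cox6a2 4.38-fold, and Cox7a2 exceeded the heart-type Cox7a1 2.35-fold. Cox8b, the heart-type partner of Cox8a, stood at 0.329, 1.32 and 1.99 CPM. Library 3 was the lowest in 43 of 51 of these genes, and also in 73 of 77 ribosomal protein genes, against 4583 of 13858 genes. In the ribosomal list the deviations from the mean had medians of 0.12, 0.13 and -0.24 on the log2 scale. Transcripts of the mitochondrial genome took 0.73, 0.906 and 0.605% of the signal. mt-Co1, the core subunit of cytochrome oxidase, stood at 2459, 2979 and 2084 CPM and mt-Cytb, cytochrome b, at 1434, 1649 and 1051 CPM, both highest in library 2. mt-Nd3 is listed at 0 in all 3 libraries, and 98% of its 50-base windows occur in another annotated gene, against 51.1% for mt-Co1 and none for mt-Cytb.

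Of the listed imprinted genes, which are read from 1 parental copy, 20 of 34 were at or above the all-gene median per length, and a few were among the most abundant genes of all. H19 stood at 6438, 6566 and 7384 CPM, rank 3 by CPM. Mest, a gene of embryonic mesoderm, stood at 3575, 4063 and 3889 CPM, and Cdkn1c, a brake on the cell cycle, at 1576, 1625 and 1767 CPM. Grb10, which dampens growth factor signals, stood at 1859, 1927 and 2098 CPM. These 4 genes had SDs of at most 0.11 on the log2 scale, and the list took 2.23, 2.4 and 2.65% of the signal. Meg3 and Rian, noncoding RNAs of another imprinted cluster, stood at 191, 137 and 111 CPM and 177, 154 and 162 CPM. Among other long noncoding RNAs, Malat1, a nuclear RNA, stood at 448, 324 and 289 CPM and Gas5, a host of small nucleolar RNAs, at 141, 133 and 112 CPM. The cell cycle list had the smallest median SD of the 29 lists, 0.099. Top2a, the topoisomerase of dividing cells, stood at 597, 603 and 635 CPM and Mcm3, part of the replicative helicase, at 252, 253 and 257 CPM. Of 41 cell cycle genes at 1 CPM or more, 1 had an SD above 0.5, and none without library 1, against 1193 and 769 of 13858 genes.

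Asb2 itself stood at 289, 183 and 218 CPM, 66.2 ± 15.5 CPM per kilobase, which placed it at rank 1012 of 15663 genes. As all these hearts carried a floxed allele and Cre, this is the level of a heterozygote and not of a wild type heart. Every listed relative of the ASB family was lower per length. Asb4, an imprinted family member, stood at 148, 188 and 181 CPM, Asb12 at 15, 6.06 and 8.39 CPM, and Asb18 at 1.22, 0.11 and 0.24 CPM. Of the ligase partners, Tceb1 and Tceb2, the elongins that link ASB proteins to the cullin, stood at 155, 174 and 112 CPM and 108, 96.4 and 82 CPM, and the scaffold Cul5 at 77.2, 80.8 and 78 CPM. Filamins, actin crosslinkers and known substrates of ASB2, were led by Flna at 490.3, 554 and 721 CPM and the muscle filamin Flnc at 723, 429.5 and 621 CPM. Their log2 ratio per length was -0.50, 0.43 and 0.28, with Flnc the higher in library 1 alone.

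Apart from the sex-linked genes, the lists with the largest median spread between the 3 libraries were those of liver bud and yolk sac endoderm, the Hox clusters and the epicardium, at 1.90, 1.13 and 1.00 on the log2 scale. Of the 1193 genes with an SD above 0.5, 560 (46.9%) were set apart by a low value in library 1, 163 by a low value in library 2, 157 by a high value in library 1, 126 by a high value in library 2, 100 by a high value in library 3 and 87 by a low value in library 3. Without library 1, 769 genes exceeded the same limit. The spread also moved with the level: the share above 0.5 was 30.4% among genes of 1 to 5 CPM and 0.7% among those of 100 to 1000 CPM.

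**Figure D3:**
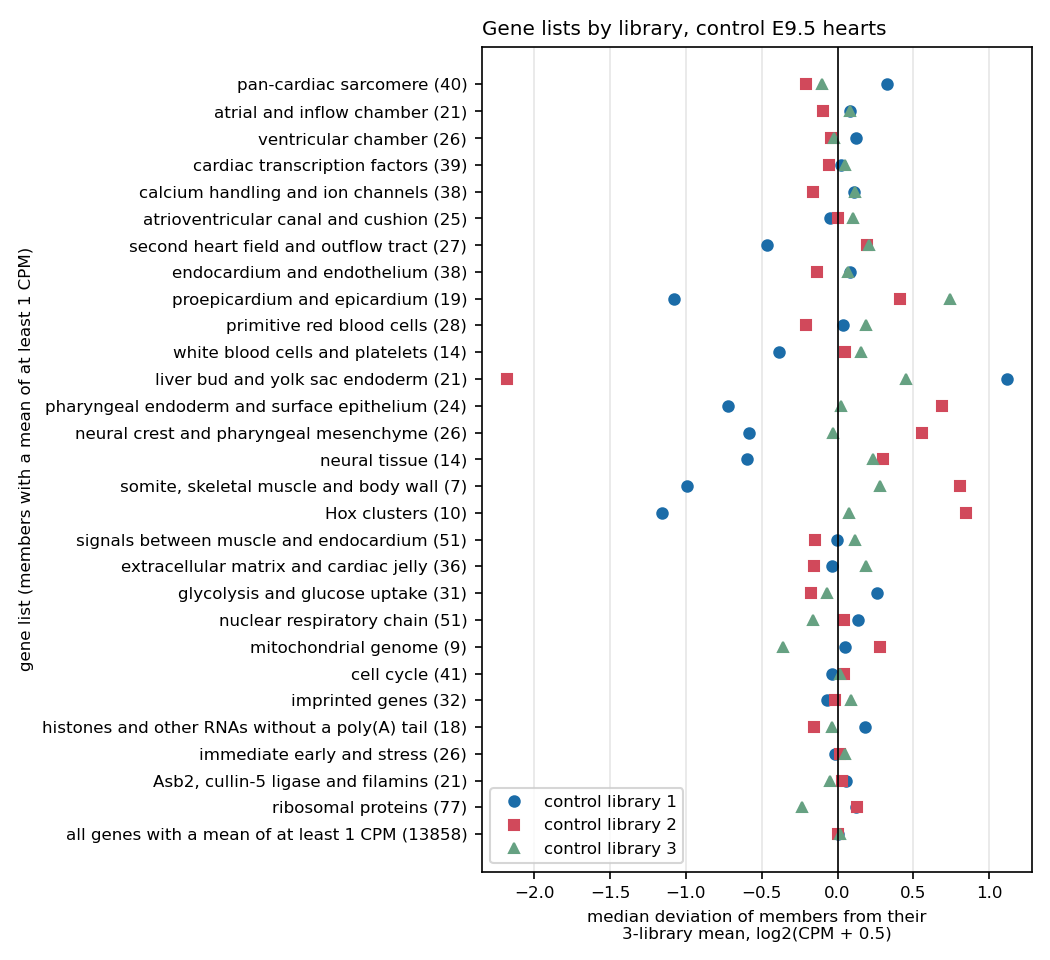
Median deviation of each gene list in each library, as log2(CPM + 0.5) minus the gene's mean over the 3 libraries, over members of at least 1 CPM (number in brackets). The endocardial list lies near 0, library 1 lies right in the sarcomere list (0.32) and left in the epicardial list (-1.08) and library 2 far left in the liver bud and yolk sac endoderm list (-2.18).

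Epicardial and proepicardial genes were low in library 1. Upk3b, a uroplakin of mesothelium, stood at 11, 104 and 145 CPM, and Tbx18, a factor of the epicardium and sinus horns, at 14.1, 69.3 and 86.7 CPM. Tcf21, a factor of epicardial cells that become fibroblasts, stood at 6.45, 37.2 and 34.5 CPM, and Wt1, the Wilms tumour factor of the same layer, at 12.2, 34.3 and 43.2 CPM. Aldh1a2, which makes retinoic acid, fell furthest behind, at 1.42, 21.1 and 22.4 CPM. In each of these genes library 1 lay below both others, which were close to each other. The SD exceeded 0.5 in 15 of 19 members, in every case through a low value in library 1, and in 1 of 19 over libraries 2 and 3 alone. Among all 13858 genes these counts were 1193 and 769. The 4 members without this pattern, Podxl and the keratins Krt8, Krt18 and Krt19, are also made by other epithelia and endothelium. Over the list, the deviations had medians of -1.08, 0.41 and 0.74 on the log2 scale.

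Endoderm genes of the yolk sac and liver bud were low in library 2. Afp, alpha-fetoprotein, stood at 158 CPM in library 1 and 3.13 CPM in library 2, and was highest in library 3. Apob and Apoa1, apolipoproteins of lipid-exporting cells, stood at 34.7, 0.137 and 47 CPM and 61, 1.51 and 38.8 CPM, and Rbp4, the retinol carrier, at 35.9, 1.81 and 21.7 CPM. In these 4 genes library 2 lay far below libraries 1 and 3. Cubn, the endocytic receptor cubilin of visceral endoderm, stood at 20.6, 1.04 and 32.4 CPM. Alb, albumin, the product of more mature liver cells, had 0, 0 and 4 reads. Of this list, 17 of 21 members had an SD above 0.5, 14 of them through a low value in library 2, and 7 exceeded it without that library. Among all 13858 genes, 1193 exceeded it, and 1357 without library 2. Hhex and Prox1, early liver factors that endothelium or heart muscle also makes, did not share the pattern, with 8.29, 9.11 and 8.35 CPM and 48.2, 37.3 and 49.8 CPM. The summed level of the list, 617, 246 and 658 CPM,, moved less, and in library 2 most of it came from Dlk1 and Prox1.

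Library 2 was in turn the highest in pharyngeal and neural crest genes, and library 1 the lowest. Epcam, an epithelial adhesion protein, stood at 13.6, 40.9 and 18.6 CPM, and Cldn6, a claudin of embryonic epithelium, at 13.9, 33.8 and 18.8 CPM. Crabp1, a retinoic acid-binding protein of neural crest, stood at 31, 127 and 59.1 CPM. Dlx2, a homeobox factor of the pharyngeal arches, stood at 1.38, 7.41 and 2.7 CPM. Library 2 was the highest in 20 of 24 genes of the pharyngeal endoderm and surface epithelium list and in 20 of 26 of the neural crest list, against 4140 of 13858 genes. The SD exceeded 0.5 in 18 of the 24 pharyngeal genes, and in 10 without library 1, and in 15 of the 26 neural crest genes, and in 10 with library 1 or library 2 left out in turn. Among all 13858 genes it did so in 1193, in 769 without library 1 and in 1357 without library 2. The second heart field list, whose cells lie in the same pharyngeal region, was lowest in library 1 in 20 of 27 genes, against 4775 of 13858 genes. Of the 27, 13 had an SD above 0.5 (8.61% of all genes), and 4 without library 1, against 769 of 13858 genes. In this list Isl1, its marker factor, stood at 14.8, 40.9 and 25.9 CPM, and Tbx1, a factor of the arches and outflow tract, at 2.7, 17.7 and 14 CPM. Fgf8 and Wnt11, also of this list, did not share that order, with 8.03, 7.46 and 6.84 CPM and 42.1, 36.6 and 40.5 CPM. Genes of the anterior Hox clusters were lowest in library 1 in 10 of 10, with Hoxb1 at 1.09, 8.34 and 4.96 CPM. Hoxa9, Hoxb7 and Hoxd1 had at most 3 reads over the 3 libraries, and 20 of 39 Hox genes were not listed. Whether the amount of neighbouring tissue differed between dissections was not tested.

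**Figure D4:**
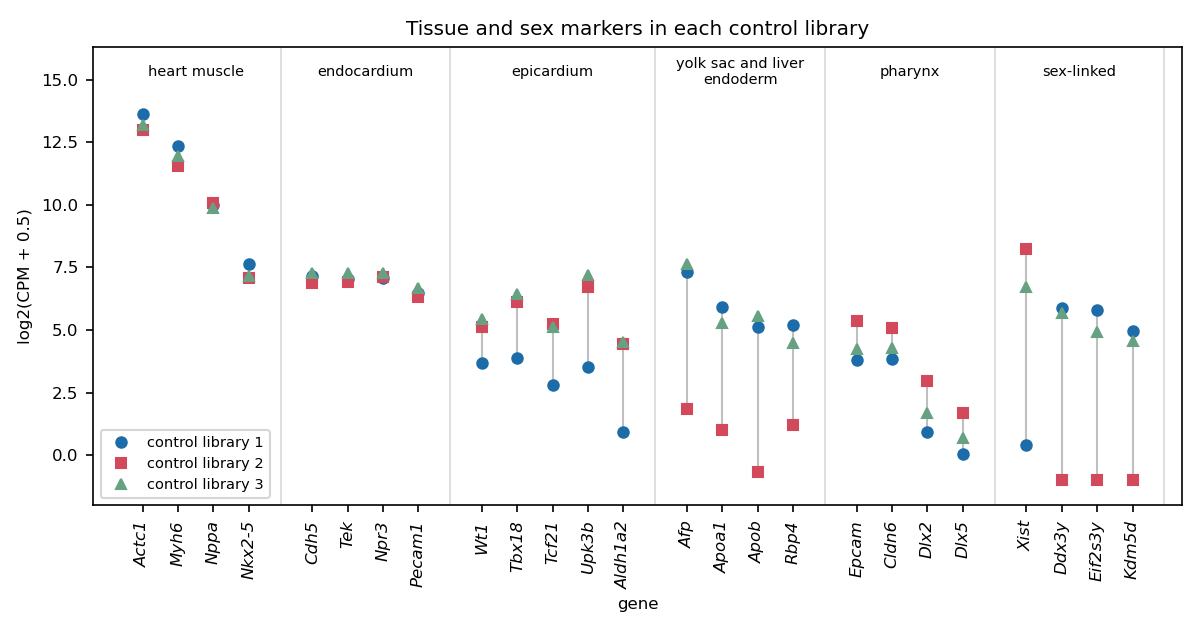
Log2(CPM + 0.5) of marker genes of 6 kinds in each control library, with a grey line over the range of the 3 libraries. Heart muscle and endocardial genes lie close together, library 1 is low in the epicardial genes, library 2 is low in the endoderm genes and the Y-linked genes, and library 3 holds Xist as well as Y-linked RNA.

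Neural and somite genes were mostly low. Sox1 and Olig2, neural tube factors, had no read in any library, and Nkx2-2 had 1 read. Tubb3, a neuronal tubulin, stood at 9.41, 22.6 and 26.1 CPM, and Pax6 at 2.47, 1.89 and 1.95 CPM. Myf5, which starts skeletal muscle fate, had 0, 18 and 2 reads. Meox1, a somite factor, stood at 3.13, 19.1 and 10.8 CPM, lowest in library 1 and highest in library 2. Nes, an intermediate filament of neural precursors that embryonic heart also makes, was the highest of the neural list, at 364, 289.7 and 323 CPM.

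The genes of at least 10 CPM that varied most included 3 kinds: sex-linked (Xist, Ddx3y, Eif2s3y, Kdm5d and Uty), endodermal (Apob, Afp, Apoa4, Apoa1, Cubn and Rbp4) and genes low in library 1, namely Aldh1a1, a retinaldehyde dehydrogenase, at 1.09, 28.5 and 33.9 CPM, Arg1, arginase, and Tmem255a at 0.592, 16.2 and 17.6 CPM. At the other end, Derl2, which helps clear misfolded proteins, stood at 34.5, 34.5 and 34.6 CPM, Ncstn, a subunit of gamma-secretase, at 111, 112 and 112 CPM, and Gnb1, a G protein beta subunit, at 646, 642 and 648 CPM. These genes were picked as the smallest spreads of many, so their closeness is a description. For the median gene the SD was 3.56 times that of counting error.

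**Figure D5:**
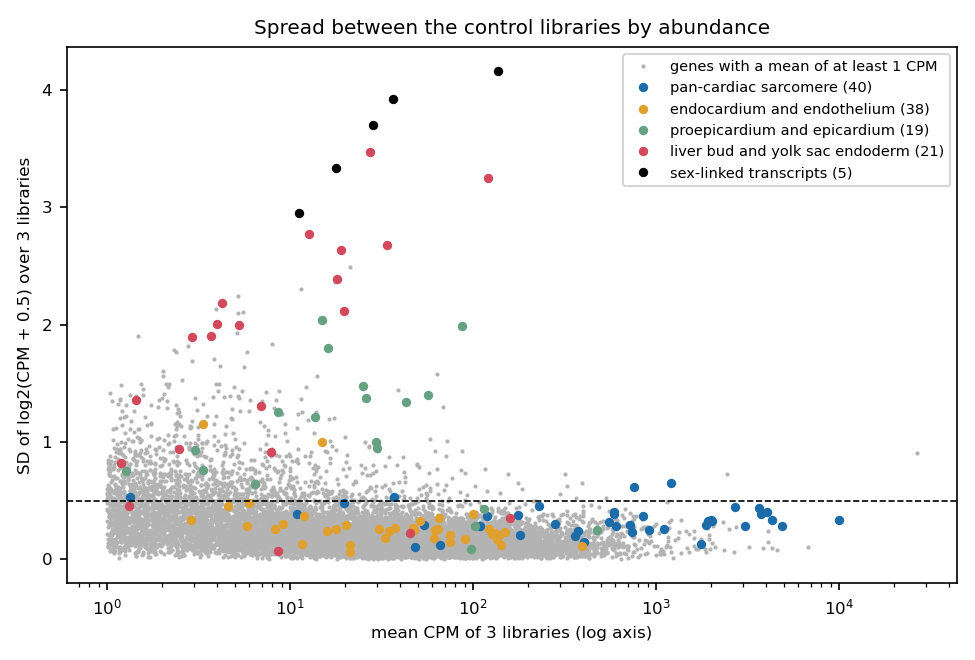
SD of log2(CPM + 0.5) over the 3 control libraries against the mean level of each gene on a log axis, with 5 lists in colour and the limit of 0.5 as a dashed line. Sarcomere and endocardial genes lie mostly below the line, at 4 of 40 and 2 of 38 above it, and epicardial, endodermal and sex-linked genes mostly above, at 15 of 19, 17 of 21 and 5 of 5. Of all 13858 genes, 1193 lie above the line.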

How the data were processed

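RNA sequencing of 3 control heart libraries was taken from 3 gene tables deposited by the authors (15211, 15005 and 15172 genes), joined to 15663 genes, of which 14682 were in all 3. The deposited values are a signal, named CPM in the file headers, and 100% were whole multiples of 1 read within 0.01 read, from which reads were recovered. Per the submitters' processing notes, STAR, HTSeq, edgeR and mm10 were used. Versions, annotation and strand setting are not given in the sources used here, so antisense and overlapping genes cannot be told apart. In 1 of the 3 tables, 12 columns of numbers without a header were counted. Such columns were not counted in the other tables, and no column without a header was used. Levels per length used the deposited gene length, whose definition is not given. Of the gene IDs, 99.1% were found in GENCODE M21 (GRCm38). Promoters came from RefSeq (GRCm38.p6) and matched 10172 genes whose start lay within 1000 bases of the annotated 5′ end.

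Spread was the SD of log2(CPM + 0.5) over genes whose mean reached 1 CPM, with a limit of 0.5. Detection was judged against a floor of 3 reads. edgeR 4.0.16 in R 4.3.3 gave dispersions as an alternative, and Python 3.11.15 with pandas 2.3.3, numpy 2.4.6 and matplotlib 3.10.9 the rest, tested on simulated data. Alternatives changed the pseudocount, the filter, the length and the libraries. Genes were named as the 25 highest per length and by CPM, up to 10 members per list with the highest level per length, members at or under the floor, all pairs, the 15 most and 10 least variable genes of at least 10 CPM, and the 10 highest lncRNAs. Further list members were named after their values were seen. The lists were chosen with earlier results of these data known. Some pairs and genes are not reported here.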

Additional observations from a re-analysis of the deposited data

How the results depend on the processing

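Of 47 alternative values planned for the whole-transcriptome results, 37 stayed within the limits set for them and 10 moved, all of them for the spread between libraries. For shares of signal the limit was the SD over the 3 libraries. Leaving 1 library out cannot shift a mean of 3 values by that much. For the hemoglobin and sarcomere shares those alternatives therefore could not move, and they say nothing on how stable these shares are. The median SD, 0.19 on the log2 scale, was 0.17 with a pseudocount of 2, 0.17 with a minimum of 5 CPM and 0.24 from edgeR's tagwise dispersions, and 0.14 to 0.17 with each library left out in turn. The 1193 genes with an SD above 0.5 became 533 with a pseudocount of 2, 440 with a minimum of 5 CPM and 1952 from edgeR. With each library left out and the minimum of 1 CPM applied again, they became 769 to 1396. Fewer genes enter under the higher minimum. With 1 library left out, each SD rests on 2 values instead of 3, and the median SD of 2 values is smaller for the same underlying spread. The leave-out values therefore cannot be set directly against the main ones. The cause of the other shifts was not tested. The 31 pairs with the first gene higher ranged from 28 to 33. Leaving libraries out of the gene lists and of the mean pair ratios was chosen after seeing the data, and many list counts moved by over 1.5 times. Only part of these are given above. In the calcium handling and ion channel list, 3 of 38 members had an SD above 0.5, and 12 without library 3, against 1400 of 13858 genes. In the extracellular matrix list 10 of 36 did, and 2 without library 1, against 769 of 13858 genes. No paired analysis was possible because the values concern 1 group only. With 3 libraries of 1 group, each SD is itself imprecise, and genes of few reads are limited by counting.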
